A study of Homo sapiens with 2 samples.

Results

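The listed RNA-seq counts of 5 annotated genes at a pair of loci were examined in poly(A)+ RNA from LNCaP cells. They are BEST1 and FTH1, which lie on opposite strands of chromosome 11, and TPT1, TPT1-AS1 and ENSG00000273149 on chromosome 13. They are 5 of the 64081 genes with a listed count, and together they held 163848 of 9495309 counted read pairs (1.73%). The genes were chosen by these listed counts, for being high on the strands opposite ferritin heavy chain and TPT1, so the counts are given as a description and no test was made on them. The listed counts put BEST1 at 60938 pairs and FTH1 at 436, and ENSG00000273149 at 102333 pairs and TPT1 at 5.

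LNCaP is an established line of human prostate carcinoma cells that respond to androgen. All samples belonged to a single condition, in which 10% charcoal-stripped serum replaced the normal serum for 48 h before RNA extraction, in medium with 10 mM HEPES. The stripping depletes androgen, and no agent or second genotype was used. The 2 biological replicates were sequenced in a strand-specific way, 75 bases from each end of the insert, and their counts were given together in 1 column. Spread between replicates therefore cannot be measured here, and every interval below is a 95% interval that covers the error of counting alone. Without molecular identifiers, pairs copied in the PCR step are counted as separate ones.

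FTH1 encodes the heavy chain of ferritin, the shell that stores iron in the cytosol, and carries the ferroxidase centre that oxidizes the incoming iron. A hairpin near the start of ferritin mRNAs, the iron-responsive element, is bound by iron regulatory proteins when iron is scarce, which holds back translation. BEST1 encodes bestrophin-1, a calcium-activated chloride channel known from the retinal pigment epithelium, where its mutations cause macular dystrophy. TPT1 encodes the translationally controlled tumour protein, an abundant protein linked to growth and survival. Its mRNA starts with a terminal oligopyrimidine (TOP) tract, which ties translation of such mRNAs to mTOR activity. TPT1-AS1 and ENSG00000273149 are annotated as long non-coding RNA (lncRNA) genes.

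The strand to which a listed count belongs matters at both loci. The study's methods give a mapping setting that takes read 1 as having the orientation of the transcript, and a counting setting for strand-specific pairs in which read 1 is taken as the reverse of the gene. Where both settings describe these libraries, a count listed for one gene is made of pairs transcribed from the other strand, so that BEST1's count would hold pairs from FTH1's strand and FTH1's count pairs from BEST1's strand. The strand of the pairs themselves was not tested, since only counts were used. Values below are therefore called listed counts, and the strand of each gene is the annotated one.

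The sequences that mark the ends of the shared stretches are shown first, all from GRCh37, the build called hg19 in the methods. At FTH1, the first stretch is the loop of the iron-responsive element in exon 1 (chr11:61735045-61735074, minus strand, 5′ untranslated), with the bases of the loop in capitals, and it lies outside BEST1. The second is the junction of FTH1 intron 1 with exon 2 (chr11:61732973-61733002, minus strand), where capitals mark the FTH1 exon. The first capital is also the position of the last base of BEST1 on the other strand.
FTH1 iron-responsive loop: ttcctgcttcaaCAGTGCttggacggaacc
FTH1 exon 2 start: gtgttcccctttcagTCTTACTACTTTGAC

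At TPT1, the start of the canonical transcript (chr13:45915289-45915318, minus strand) is shown with its 7-nt pyrimidine run in capitals. Its first base is also the position of the last base of ENSG00000273149. The end of exon 1 of ENSG00000273149 (chr13:45914615-45914644, plus strand) and the start of its exon 2 (chr13:45915172-45915201, plus strand) are shown because the same 7 bases, in capitals, stand at both ends of its only intron. The capitals are the first bases of the intron in the former stretch and the first bases of exon 2 in the latter. The shared part of TPT1 exon 3 (chr13:45914174-45914319, minus strand, coding) is the stretch of TPT1 coding sequence that faces exon 1 of ENSG00000273149.
TPT1 start: CTTTTCCgcccgctcccccctccccccgag
ENSG00000273149 end of exon 1: agccggaagcatcatGTCCCGGacaacccc
ENSG00000273149 start of exon 2: ctcacggctgatgagGTCCCGGtagataat
TPT1 exon 3, shared part: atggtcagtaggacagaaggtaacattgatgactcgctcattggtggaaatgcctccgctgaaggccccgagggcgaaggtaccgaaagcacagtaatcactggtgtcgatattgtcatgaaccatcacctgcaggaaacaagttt

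FTH1 (ENSG00000167996, chr11:61727190-61735106, minus strand) had a listed count of 436 pairs (interval 396.0 to 478.9), or 45.9 counts per 1000000 pairs on genes (CPM). It ranked 1735th of all genes. BEST1 (ENSG00000167995, chr11:61717535-61732987, plus strand) had a listed count of 60938 (60455 to 61424), or 6418 CPM, and ranked 8th. Of the pairs listed for either gene, BEST1 held 99.29% (Clopper-Pearson interval 99.22 to 99.35%), a ratio of 139.8 (127 to 154).

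TPT1 (ENSG00000133112, chr13:45907606-45915419, minus strand) had a listed count of 5 (1.62 to 11.7), or 0.527 CPM, which placed it 18417th. A count of at most 5 was listed for 71.3% of all genes. ENSG00000273149 (chr13:45914174-45915318, plus strand) had a listed count of 102333 (101707 to 102962), or 10777 CPM, and ranked 6th. TPT1 held 0.00489% (0.00159 to 0.0114%) of the pairs listed for this pair of genes, against 0.710% (0.645 to 0.780%) for FTH1 in its pair with BEST1. Were the strands turned, these would be the shares of the pairs from the strand opposite each mRNA. The shares rest on the counts by which the genes were chosen and are a description. TPT1-AS1 (ENSG00000170919, chr13:45915480-45992110, plus strand) had a listed count of 136 (114.1 to 160.9), or 14.3 CPM, and ranked 4049th.

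**Figure D1:**
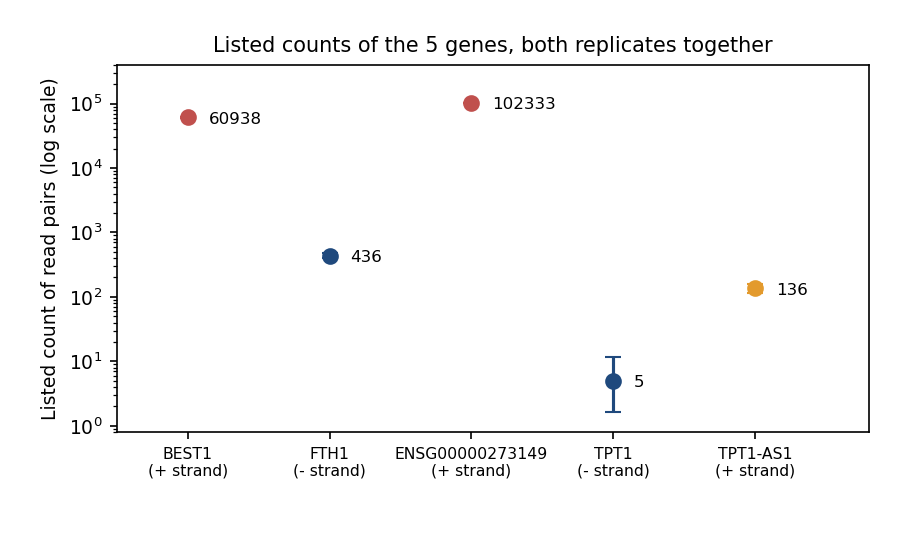
Listed counts of read pairs for the 5 genes, on a log axis, with both replicates together. Points are the counts and bars are 95% Poisson intervals, which are narrower than the points for BEST1 and ENSG00000273149. BEST1 and ENSG00000273149 stand above 10000 pairs, and FTH1, TPT1-AS1 and TPT1 at 436, 136 and 5.

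Listed counts of at least 10000 pairs were found for 2 of the 5 genes, against 0.0811% of all genes, but this measure is the one by which the genes were picked, and nothing is read from it. Per kilobase of all annotated exons, a scale on which genes of different length can be compared, ENSG00000273149 had 174036 pairs, BEST1 7014, FTH1 217.6, TPT1-AS1 9.38 and TPT1 0.696. The order of the 5 genes was the same as that of the counts. The order is a description of the counts by which the genes were chosen, and the spread between replicates is not known.

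The exonic overlap of BEST1 and FTH1 was 1267 nt over all annotated transcripts, which is 63.2% of FTH1 exons and 14.6% of BEST1 exons. Of the canonical FTH1 mRNA (ENST00000273550, 4 exons, 1203 nt), 880 nt (73.2%) faced BEST1 exons, and so did 435 of its 549 coding nucleotides (79.2%). Exons 2, 3 and 4 of FTH1, of 147, 126 and 607 nt, were covered over 100% of their length. Exon 1 (323 nt), which holds the iron-responsive element shown above and the start codon, was covered over 0 nt. The overlap thus takes in most of the ferritin coding sequence and the whole of its last exon, and leaves out the part of the mRNA that senses iron.

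All but 36 nt of this overlap lay in the last exon of 1 BEST1 transcript. That exon of ENST00000449131 (chr11:61729727-61732987, 3261 nt, of which 892 coding) shared 1231 nt with FTH1 exons and ended at the first base of FTH1 exon 2, 1796 nt short of FTH1 exon 1. The canonical BEST1 transcript (ENST00000378043, 11 exons, 2210 nt) shared only 177 nt with the canonical FTH1 mRNA, all in its exon 11 (chr11:61731576-61731933). In its exon 9 a further 36 nt faced an exon of other FTH1 transcripts. How much of the overlap a counting program sees therefore depends on the transcripts in the gene models, and the models used here are not the ones the authors counted with. In the last 50 bases of BEST1 neither of the polyadenylation signals AATAAA and ATTAAA was found, against 2 in the last 50 bases of FTH1, searched on the strand of each gene.

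**Figure D2:**
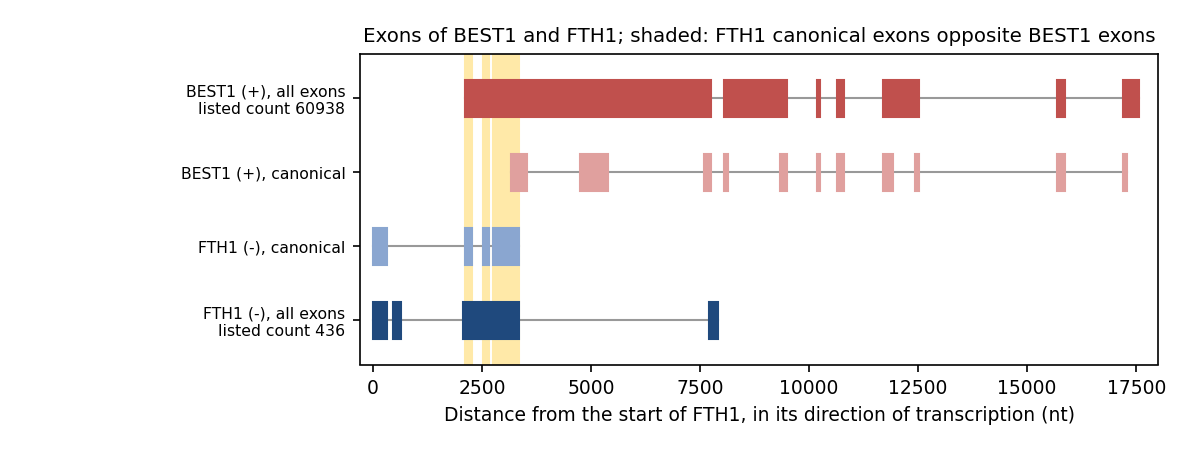
Exons (boxes) of BEST1 and FTH1 along the distance from the FTH1 start, in nucleotides, for the canonical transcripts and for all annotated exons. Shading marks the 880 nt of the canonical FTH1 mRNA that face BEST1 exons. FTH1 exon 1, at the left, is unshaded, and the canonical BEST1 transcript reaches only into FTH1 exon 4.

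ENSG00000273149 was the reverse case, since all of its exons faced TPT1. Its single transcript (ENST00000610057, 2 exons, 588 nt) was covered over 100% by TPT1 exons, while it covered 8.19% of the TPT1 exons. Against the canonical TPT1 transcript (ENST00000530705, 6 exons, 4548 nt) the shared length was 278 nt (6.11%), with 164 of the 516 coding nucleotides (31.8%). Exon 1 of TPT1 was covered over 132 of 142 nt, which left out its last 10 bases, and exon 3 over 146 of 191 nt (76.4%). Exons 2, 4, 5 and 6 shared 0 nt.

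The single intron of ENSG00000273149, of 557 nt, starts with GT and ends with AG, as 96.6% of annotated introns do. The 7 bases repeated at its ends mean that the join between exons can be placed at any of several positions without changing the spliced sequence. A direct repeat of at least 7 nt at the ends was found in 4458 of 402531 annotated introns (1.11%) and in 985 of 74194 introns of lncRNA genes (1.33%), and the median repeat was 2 nt. Reads across this intron cannot be examined from counts per gene.

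TPT1-AS1, although named as the antisense gene of TPT1, shared 0 nt of exon with it. Its first base lies beyond the TPT1 start, with 60 nt between the genes, so that the genes are transcribed away from each other. The gap (chr13:45915420-45915479, plus strand) is shown because it is all that separates their outermost annotated starts, and 78.3% of its bases are G or C. The canonical transcripts start further apart, at 45915318 for TPT1 and 45915618 for TPT1-AS1.
Gap between TPT1 and TPT1-AS1: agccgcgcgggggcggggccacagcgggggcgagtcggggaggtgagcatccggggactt

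TPT1-AS1 held 96.5% (91.9 to 98.8%) of the pairs listed for it and TPT1, a ratio of 27.2 that rests on the 5 pairs of TPT1. The genes with exons opposite TPT1-AS1 were RCN1P2, a pseudogene of the calcium-binding protein RCN1, and SLC25A30, which encodes a mitochondrial carrier. Together they shared 884 nt with it, or 6.10% of its 14498 exonic nt. RCN1P2 shared 786 nt, 85.9% of its exons, and had a listed count of 135 (113.2 to 159.8). TPT1-AS1 thus held 50.2% (44.1 to 56.3%) of the pairs of TPT1-AS1 and RCN1P2, and the raw counts of these opposite genes did not differ beyond counting error. Per kb of exon they had 9.38 and 147.5 pairs, and the column does not say how many fell on the shared 786 nt. SLC25A30 shared 98 nt and had a listed count of 55 (41.4 to 71.6), which left TPT1-AS1 with 71.2% (64.2 to 77.5%).

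**Figure D3:**
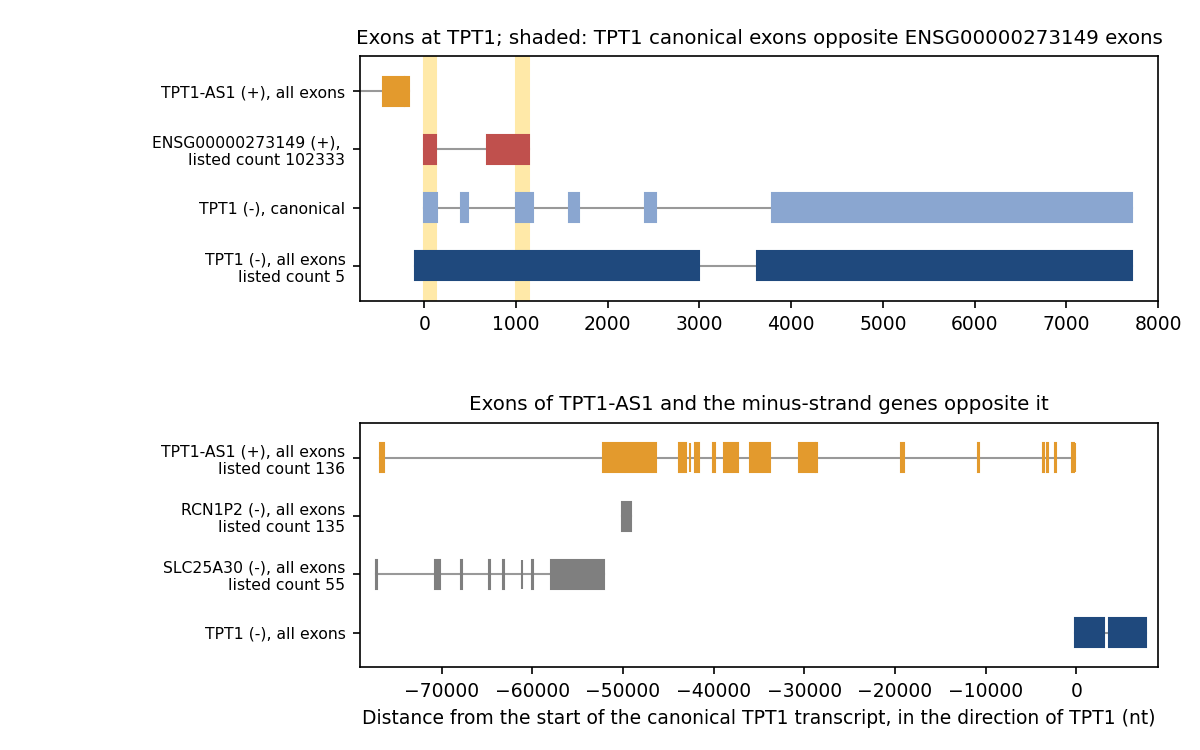
Exons (boxes) around TPT1 along the distance from the start of the canonical TPT1 transcript, in nucleotides, with the listed count of each gene. In the upper panel shading marks the 278 nt of the canonical TPT1 mRNA that face ENSG00000273149 exons, in TPT1 exons 1 and 3. The lower panel shows TPT1-AS1 running away from TPT1, with RCN1P2 and SLC25A30 opposite its distant exons.

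Pairs of genes that share exons on opposite strands gave the setting for these ratios. There were 6887 such pairs, of which 3594 had a summed count of at least 100. In 914 of the latter (25.4%) the higher count was at least 100 times the lower. Both exon-sharing pairs among the 5 genes (BEST1 with FTH1, and ENSG00000273149 with TPT1) passed this ratio, but they had been chosen for it. The median ratio of the 3594 pairs, with 1 added to each count, was 13.7, and their median shared length was 303 nt. A ratio above that of BEST1 and FTH1 was found in 22.1% of the pairs, and one above that of ENSG00000273149 and TPT1 in 11.8%, pairs with a lower count of 0 included. The ratios of the members were therefore within the range of other pairs. Their higher counts, for which they were chosen, were the highest (ENSG00000273149) and the next highest (BEST1) of all 3594.

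By the distance between the log10 counts of both genes, the pairs most like BEST1 and FTH1 included TSPAN31 with CDK4 (listed counts 19470 and 301), ENSG00000264577 with RPL23A (16872 and 359), PPFIA2 with PPFIA2-AS1 (14851 and 694) and UGDH-AS1 with UGDH (14288 and 196). The lower counts were listed for genes of a cell cycle kinase (CDK4), a ribosomal protein (RPL23A), a lncRNA (PPFIA2-AS1) and UDP-glucose dehydrogenase (UGDH). The pairs most like ENSG00000273149 and TPT1 were LACTB2-AS1 with LACTB2 (21102 and 2), TUBA1B-AS1 with TUBA1B (28150 and 19), PCBP1-AS1 with PCBP1 (16795 and 9), ENSG00000269968 with GAPDH (17611 and 14) and TSPAN31 with AGAP2 (19470 and 21). Beside LACTB2 and AGAP2, the lower counts were those of an alpha-tubulin (TUBA1B), the poly(C)-binding protein PCBP1, which also delivers iron to ferritin, and the glycolytic enzyme GAPDH. The likeness is over 1 pooled column and says only that the counts are close. The kinds of genes were not compared with those of all other pairs, so nothing is read from them.

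The density of listed pairs over the shared exons differed between the loci. Had all pairs listed for BEST1 fallen on exons shared with FTH1, they would amount to 48096 pairs per kb, and to 69248 per kb of the canonical FTH1 mRNA it faces. For ENSG00000273149 and TPT1 the same measures were 174036 and 368104 pairs per kb. ENSG00000273149 was thus 1.68 times BEST1 in listed count, 3.62 times BEST1 per kb shared, and 5.32 times per kb shared with the canonical transcript. With the longest transcript of each gene the order turned, at 6093800 pairs per kb shared for BEST1 against 368104 for ENSG00000273149. The longest BEST1 transcript shares only 10 nt with the longest FTH1 transcript. All these densities are upper values for BEST1, since only 14.6% of its exonic length is shared. For ENSG00000273149 the 368104 is an upper value too, since only 278 of its 588 exonic nt face the canonical TPT1 transcript. The column does not say where in a gene a pair fell. Among the 2931 pairs of genes with at least 100 shared nt and a summed count of at least 100, ENSG00000273149 ranked 1st and BEST1 15th by the higher count per kb shared. Both were chosen for high counts, so these ranks are a description, and that of BEST1 rests on an upper value.

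With inserts of 150 to 250 nt, the sizes selected for these libraries, fragments reach the shared exons from beyond them. Every fragment start of the canonical FTH1 mRNA was examined for whether either 75-base end of a fragment would touch a BEST1 exon. At an insert of 200 nt this held for 87.6% of the starts, and for 83.5% and 92.2% at 150 and 250 nt. For the canonical TPT1 transcript and ENSG00000273149 it held for 8.32% at 200 nt, mainly because the last TPT1 exon of 3918 nt lies outside. Over the annotated transcripts long enough for a 200-nt insert, it ranged from 48.4 to 100% in 10 FTH1 transcripts and from 0 to 89.9% in 9 TPT1 transcripts. Spread over those starts of the canonical transcript, the counts listed on the opposite strand came to 69.2 pairs per start for BEST1 and 282.7 for ENSG00000273149, a ratio of 4.08.

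Both ferritin heavy chain and TPT1 have many processed pseudogenes, intronless copies of their mRNA elsewhere in the genome, and pairs that fit several places were not counted. Of the 1129 stretches of 75 bases in the canonical FTH1 mRNA, 380 (33.7%) had at least 1 other exact copy in the genome. Of the 880 that touch BEST1 exons, 353 (40.1%) had one. In the canonical TPT1 transcript 7 of 4474 stretches (0.156%) had an exact copy, and 0 of the 352 that touch ENSG00000273149. These parts of the FTH1 mRNA cannot be placed by a single read, whereas the TPT1 stretch that faces ENSG00000273149 was free of exact copies at this length. How many pairs were lost at FTH1 was not tested, since a pair can still be placed by its other end.

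By alignment of the coding sequence, FTH1 had 23 copies elsewhere in the genome, 12 of which held at least 1 identical stretch of 75 bases (152 at most, in FTH1P7). Over the copies that spanned enough of the coding sequence to be compared, identity ran from 74.6 to 97.5%. The lowest was that of FTHL17, which like FTMT is among the copies but is not named as an FTH1 pseudogene. TPT1 had 19 copies with identities of 73.1 to 95.3%, and 1 of them, TPT1P9, held identical stretches (7). Some of the TPT1 copies also lay outside the named TPT1 pseudogenes. Of 25 FTH1 pseudogenes with a listed count, 18 were at 0 and 6 (24.0%, against 24.3% of all genes) had at least 10 pairs, with 465 pairs in all. The highest were FTH1P20 (173), FTH1P10 (163), FTH1P24 (50) and FTH1P4 (38). Their sum was thus above the 436 pairs listed for FTH1 and far below the 60938 listed for BEST1. Of 15 TPT1 pseudogenes 13 were at 0, and all together had 4 pairs, about as many as TPT1 with 5. A count of 0 allows up to 3 pairs, as a one-sided 95% limit. With turned strands, the counts of the pseudogenes would likewise be pairs from the strand opposite each of them. How many FTH1 or TPT1 pairs were placed on pseudogenes was therefore not tested.

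The genes around the loci were counted as well. Within 100 kb of any of the 5 genes lay 17 other annotated genes, of which 16 had a listed count. Their median was 0.5 pairs, 8 were at 0, and 5 had at least 10. Over all genes the median was 0, with 35505 of 64081 at 0 and 24.3% with at least 10. The highest was FADS2, a fatty acid desaturase, with 204. FADS3, on the strand of FTH1, had 22, and RAB3IL1 had 1. On the TPT1 side, SLC25A30-AS1 had 18, and the general transcription factor subunit GTF2F2, the Golgi gene COG3 and the small nucleolar RNA gene SNORA31 were at 0. No other annotated gene on the strand of BEST1 or of ENSG00000273149 covered the shared exons. Among the 16 neighbours and the 5 genes, only BEST1 and ENSG00000273149 had more than 436 pairs. They had been chosen for high counts, so nothing is read from this.

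Other iron genes were described by the same measure. Of 30 genes of iron storage, uptake and control, 29 had a listed count, with a median of 14 pairs, and 18 (62.1%) had at least 10, against 24.3% of all genes and 44.2% of protein-coding genes. FTL, the light chain of ferritin, had 4 pairs and no gene with exons opposite it. The highest was ACO1, the cytosolic aconitase that serves as iron regulatory protein 1, with 1741, while IREB2, iron regulatory protein 2, had 56. The transferrin receptor TFRC had 6, and the iron exporter SLC40A1 was at 0. FTH1, with 436 listed pairs, came after ACO1, CP and PCBP2. Were the strands turned, pairs from its strand would stand in the 60938 listed for BEST1, and those of PCBP1 in the 16795 listed for PCBP1-AS1. The 1741 listed for ACO1 would then also be pairs from the strand opposite ACO1, so the iron genes could not be ranked by these counts.

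Of the iron genes, 10 faced exons of a gene on the other strand, and in 6 of them that gene had the higher listed count. No share over all genes was computed to set beside this number, and FTH1 was chosen by its counts, so nothing is read from it. PCBP1 had 9 pairs against 16795 for PCBP1-AS1, with 1264 nt shared. The ferrireductase gene STEAP3 had 10 against 194 for STEAP3-AS1. CP, the plasma ferroxidase ceruloplasmin, had 874 against 1104 for HPS3. PCBP2 had 842 (786.1 to 900.8) against 853 for MAP3K12. FBXL5, which targets iron regulatory protein 2 for degradation, had 4 (1.09 to 10.2) against 8 for FAM200B. The counts of these 2 iron genes were within counting error of those they faced. FTH1 was the other case. In the remaining 4 the iron gene was higher or both were at 0, as for HFE, the haemochromatosis gene, with 167 against 1 for H2BC4.

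Bestrophins other than BEST1 had low listed counts, with 54 for BEST2, 2 for BEST3 and 1 for BEST4, and none of these faced exons of another gene. Of 9 genes that mark retinal pigment epithelium, the tissue where bestrophin-1 is known, 3 were at 0 (RPE65, TYRP1 and TTR), and the median was 6. PMEL, a melanosome protein, was the highest with 614, and it faced exons of CDK2, listed at 3, over 89 nt. Of the 9 marker genes 2 (22.2%) had at least 10 pairs, against 24.3% of all genes and 44.2% of protein-coding genes. Their part in the listed count of BEST1 was not tested, and neither was the strand from which the pairs of bestrophins and markers came. In bulk RNA fewer cells of a type and less RNA per cell cannot be told apart.

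Genes that work with TPT1 or share its TOP class were 16, with a median of 15 pairs, and 11 (68.8%) had at least 10, against 24.3% of all genes and 44.2% of protein-coding genes. The ribosomal scaffold RACK1 was the highest with 329, and the elongation factors EEF1A1, EEF1B2 and EEF2 had 14, 16 and 1. In 5 of the 7 that faced exons of another gene, that gene had the higher listed count. As no share over all genes was computed to set beside it, nothing is read from this number. EEF1D had 35 pairs against 3116 for ENSG00000254741, and MDM2 had 24 against 3670 for ENSG00000257181. EEF1A1 and RACK1 were the exceptions, with 14 against 1 for EEF1A1-AS1 and 329 against 58 for CTC-338M12.4. As for the iron genes, turned strands would make these counts pairs from the strand opposite each gene. The level of their own RNA was therefore not read from them.

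Markers of the labelled cell type were described by the same listed counts. Of 13 prostate luminal genes 11 (84.6%) had at least 10 listed pairs, against 44.2% of protein-coding genes, and none was at 0, with a median of 50. KRT8 and KRT18, the luminal keratins, had 6947 and 595 and face each other over 525 nt. KLK3, which encodes prostate-specific antigen, had 18. The 6 genes of other cell types with a listed count had 1 to 33 pairs, with a median of 9.5, and 3 of them had at least 10. CD68, a macrophage gene, with 33 and ACTA2, smooth muscle actin, with 31 were above KLK3 and above the luminal genes HOXB13 (8) and EPCAM (6). If the strands are turned, all these are pairs from the strand opposite each marker. The strand was not tested, so the label of the cells was not judged by these counts. Over the whole column 138995418 of 148700190 uniquely placed pairs (93.5%) fell on no gene in the counting, and 6.39% on genes. The share of these that belongs to the strands of the 5 genes was not tested.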

How the data were processed

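The authors prepared strand-specific poly(A)+ libraries from 2 LNCaP replicates and, per the methods and the labels, used Trimmomatic 0.30 for trimming, TopHat 2.0.12 and Bowtie 2.2.3 for mapping to hg19 (library type fr-secondstrand), and htseq-count 0.6.1p1 for counting, stated as reverse for strand-specific pairs, on an annotation of an earlier study with HIPSTR added. The authors deposited whole-number counts per gene, without normalization, for both replicates in 1 column. The overlap mode of counting is not given in the sources used here.

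From these counts CPM, counts per kb of exon, exact Poisson intervals and Clopper-Pearson intervals (95%) were computed. Depth was 9495309 pairs on genes, and the 28576 genes that were seen at all had a median of 12 pairs. Ambiguous pairs numbered 209463 and alignments that were not unique 34171204. Identifiers were matched without version to GENCODE 44 models on GRCh37, for 55538 genes. These are not the authors' models. Canonical transcripts are those GENCODE tags so. Exons of a gene are the union over its transcripts, and genes paired when exons on opposite strands shared at least 1 nt. Copies were sought with BLAST 2.17.0+. The overlap and interval code was tested on simulated data. Sequences were read with samtools 1.23.1, and Python 3.11.15, scipy 1.17.1 and pandas 2.3.3 were used.

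The genes, lists and rules were chosen with earlier results of these data known. Named were the 5 genes, genes within 100 kb, the genes of the lists and what faces them, and the 5 pairs nearest in log10 counts to each member pair. A few genes that these rules name are not reported here. Genes without a count, such as NCOA4, were not analysed here. There is a single condition, so no test was made. Alternatives were other length scales, library sizes, transcripts and pair thresholds.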

Additional observations from a re-analysis of the deposited data

How the results depend on the processing

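No paired analysis was possible because the 2 replicates are given in 1 column, and leaving out a replicate could not be run for the same reason. Of 31 alternatives 5 stayed within counting error and 26 moved, and in the 6 that compare the genes of a pair the same gene was higher. The share of BEST1 in its pair was 99.3% by counts, 96.99% per kb of exon and 98.7% per kb of the canonical transcript. That of ENSG00000273149 was 99.9951%, 99.9996% and 99.9994%, and that of TPT1-AS1 with TPT1 was 96.5%, 93.1% and 99.3%. The longest BEST1 transcript shares only 10 nt with the longest FTH1 transcript. Counts of BEST1 per kb shared with FTH1 were 69248 with the canonical FTH1 exons and 6093800 with the longest transcript of each gene. Those of ENSG00000273149 with TPT1 were 368104 in both cases, so that with the longest transcripts BEST1 was above ENSG00000273149, the reverse of the order on the other scales. The share of opposite pairs past the 100-fold ratio was 27.1% at a summed count of at least 10 and 35.3% at 1000, and 55.9% passed a ratio of 10. CPM depends on the library size: BEST1 had 12465 without the 3 highest counts, which hold 48.5% of the pairs on genes, and 409.8 with uniquely placed pairs as the library size. The scales by canonical transcript were added after the data were seen. Depth limits TPT1 most, since its ratio rests on 5 pairs.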
